A study of Mus musculus with 10 samples.

Results

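Lysophospholipid acyltransferases are membrane enzymes that join a fatty acyl chain from acyl-CoA to a lysophospholipid, a phospholipid that has lost a chain. The genes described are Mboat1 and Mboat2, Lpcat1, Lpcat2, Lpcat3 and Lpcat4, Agpat1, Agpat2 and Agpat3, and Lclat1, 10 of the 35275 genes listed for mouse jejunum. They were taken by name as enzymes that consume lysophospholipids, and the family was picked because Mboat1 was already known to be much higher in MYO5B-knockout than in control mice in these libraries. Differences between knockout and control mice are therefore given as a description, with no p for a member and with counts of members past a threshold that support nothing, and tests are given for lysophosphatidic acid (LPA) against vehicle among knockout mice, although the vehicle-treated knockout libraries were among those behind the choice.

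Phospholipids are made by adding acyl chains to glycerol-3-phosphate, in which LPA is the intermediate that the AGPAT enzymes acylate to phosphatidic acid. They are then remodelled, as phospholipases A2 remove a chain and the LPCAT and MBOAT enzymes add another, which sets the fatty acids that a membrane carries. In the absorptive cells of the small intestine this family also serves the packing of dietary fat, since chylomicrons are coated with phospholipid.

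RNA was sequenced from epithelial cells isolated from the jejunum of 10 C57BL/6 mice labelled as adult males, which were all VillinCreERT2;MYO5Bflox/flox, so that the villin promoter confines the inducible Cre to the intestinal epithelium. MYO5B is a motor protein of apical membrane traffic. The 3 control mice (2, 4 and 5) received corn oil and were not induced. The 4 MYO5B-knockout mice (3, 5, 6 and 7) received 2 mg of tamoxifen and vehicle, and 3 further knockout mice (1, 4 and 5) received 2 mg of tamoxifen and 3 mg/kg LPA by intraperitoneal injection for 4 days, with cells taken on day 4. Because control mice had no tamoxifen, the drug and the loss of MYO5B cannot be told apart, and because LPA was given only to knockout mice its effect in control mice was not measured. Samples are separate mice, and in such bulk RNA fewer cells of a type and less RNA per cell cannot be told apart.

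Between 10949420 and 24470409 reads per library lay on genes, and 1 read on a gene of 1 kb equals 0.0409 to 0.0913 FPKM (fragments per kilobase of gene, scaled to the fragments that the library has on genes). Control mouse 2 and knockout mouse 3 stood apart, with 12242 and 12601 genes detected and 17.4% and 18.05% of reads on mitochondrial genes, against 17309 to 18267 genes and 1.98% to 3.50% in the other 8 libraries. Knockout mouse 3 and LPA-treated mouse 1 carried Xist RNA (8.41 and 15.1 FPKM) and no read on 4 Y-linked genes, against the label of male mice, and the label of LPA-treated mouse 1 names both vehicle and LPA. Myo5b RNA was at 16.5, 32.0 and 26.1 FPKM in controls, at 10.5 to 13.6 FPKM in vehicle-treated knockout mice and at 10.3 to 11.7 FPKM in LPA-treated knockout mice. Its log2 fold change between knockout and control mice was -0.96 (SE 0.28, limma's adjusted p = 0.115). Among marker lists, the summed FPKM of 7 epithelial markers was 5445 to 7383 in control, 8105 to 10515 in knockout and 9185 to 11855 in LPA-treated mice. That of 10 enterocyte markers was lower in every vehicle-treated knockout library than in every control library, at 31693 to 41490, 14877 to 27235 and 23665 to 44592 in the same order. The summed FPKM of 13 leukocyte markers was 303 to 427, 13.1 to 125 and 25.6 to 43.9 in the same order, and that of 10 proliferation markers was 94.1 to 133, 216 to 353 and 158 to 267. Such sums rest mostly on the genes with the most RNA. Fabp1, Apoa1 and Fabp2 averaged 9717, 12460 and 7162 FPKM in control mice, and Gzma 292 FPKM. Between knockout and control mice, 4 of the 10 enterocyte markers had positive and 6 negative log2 differences. Of the 12 leukocyte markers tested 2 were positive and 10 negative. The counts were 5 and 2 for epithelial and 10 and 0 for proliferation markers. The part of these cell types in the differences below was not tested.

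The sequences just upstream of Mboat1 and Mboat2 are shown because these relatives were low in control mice and higher in every knockout library. Each is the 250 bases before the RefSeq start of the gene in GRCm38.p6, plus strand, from chr13:30136240-30136489 and chr12:24831349-24831598. Capitals mark matches to a GC box (GGGCGG) or a CCAAT box (CCAAT) on either strand.
Mboat1: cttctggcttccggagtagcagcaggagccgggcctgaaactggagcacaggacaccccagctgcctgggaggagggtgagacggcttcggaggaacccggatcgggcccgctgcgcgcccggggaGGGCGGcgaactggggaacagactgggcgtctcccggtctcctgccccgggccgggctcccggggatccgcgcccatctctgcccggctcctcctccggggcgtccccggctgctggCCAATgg
Mboat2: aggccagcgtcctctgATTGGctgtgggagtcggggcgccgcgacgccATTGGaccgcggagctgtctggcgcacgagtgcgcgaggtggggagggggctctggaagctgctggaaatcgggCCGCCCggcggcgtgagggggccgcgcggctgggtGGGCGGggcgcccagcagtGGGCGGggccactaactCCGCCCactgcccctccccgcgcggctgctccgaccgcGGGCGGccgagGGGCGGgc

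Both windows are rich in G and C, 73.2% for Mboat1 and 77.6% for Mboat2, where the median of all 32851 RefSeq windows of that length was 52.4%. The Mboat1 window held 1 GC box and 1 CCAAT box, and the Mboat2 window held 6 and 2, with no match overlapping another. All 10 genes matched a RefSeq window, 11 in all since Agpat1 has a pair. A GC box was found for 9 of the 10 genes, all but Agpat3, against 32.7% of all windows, and a CCAAT box for 5 of 10 against 33.9%. The 11 windows had a median of 67.6% G and C, against 52.4% over all windows, and matches were not corrected for this. By GENCODE M21 the windows of Mboat2, Lpcat4, Agpat1 and Agpat3 lie inside the annotated span of the gene. Those of Lpcat1 and Lpcat3 begin before the annotated start and end past it, and that of Mboat1 ends on it. A TATA box (TATAAA) was found only for Lpcat2, against 12.4% of all windows. The letters of an AP-1 site (TGANTCA, in 6.75% of all windows), an E-box (CACGTG, 6.02%), a TEAD site (GGAATG, 12.6%) and an HNF4 site (CAAAGTCCA, 0.384%) were found on neither strand in any of the 11 windows.

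In control mice, 3 members supplied most of the family's RNA. Agpat2, Lpcat3 and Agpat1 had means of 111, 84.9 and 80.3 FPKM, and their libraries overlapped, so that their order is within the spread. Agpat3 followed at 27.1 FPKM and Lclat1 at 9.04 FPKM, and the other 5 had means of 2.97 FPKM or less. In vehicle-treated knockout mice the leading 3 were the same, and Mboat1 and Lpcat4 stood in the fourth and the fifth place, above Agpat3. Every member passed the minimum mean of 0.1 FPKM for testing, but Mboat2, at 0.0504 FPKM in control mice, passed it only through the knockout groups.

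**Figure D1:**
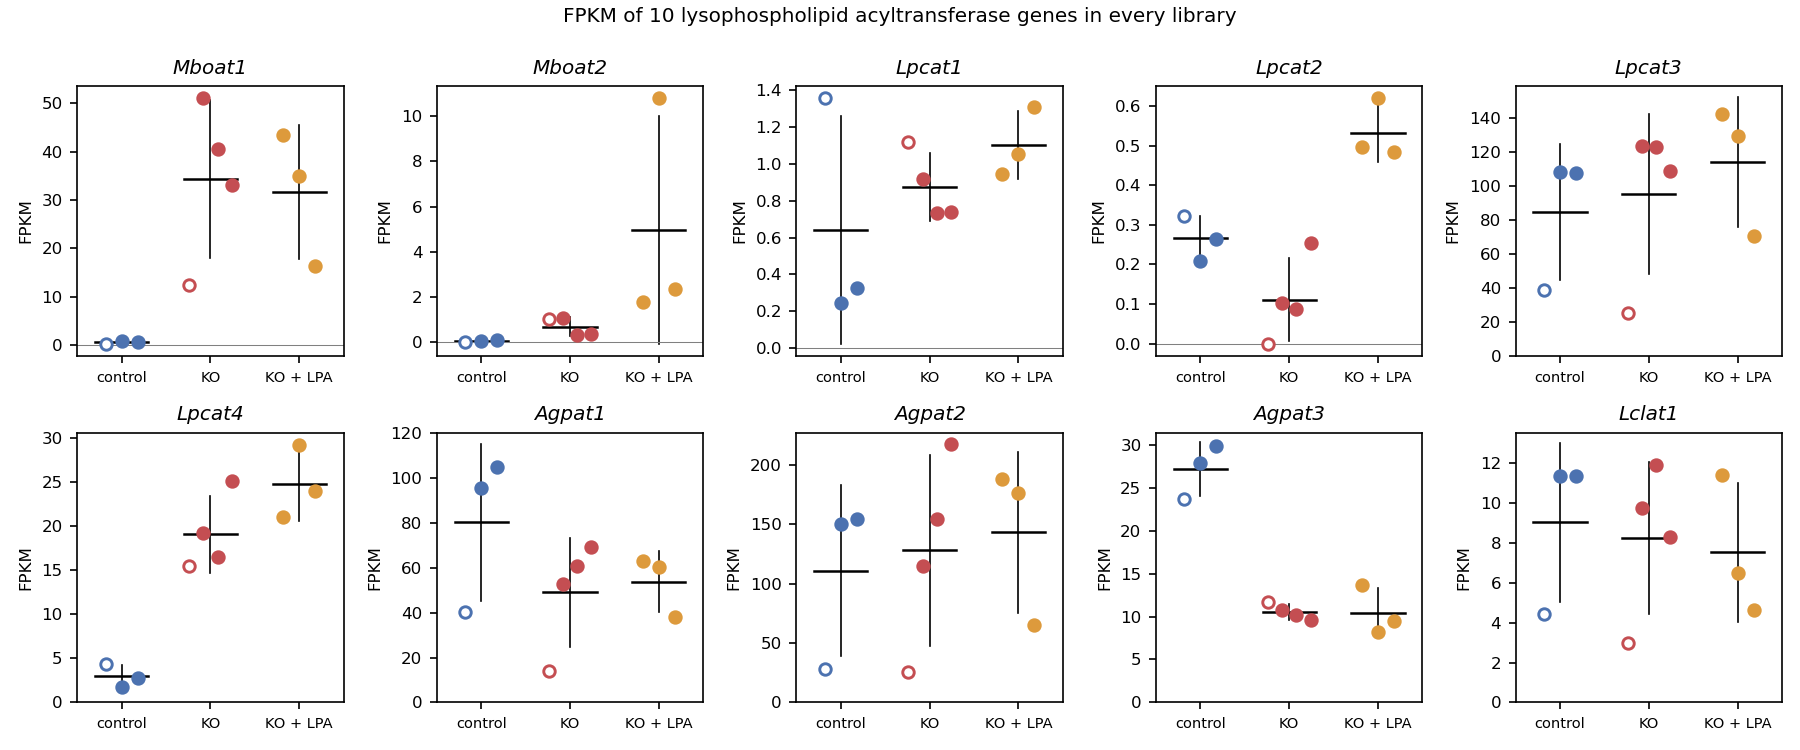
FPKM of the 10 lysophospholipid acyltransferase genes (vertical axes, each from 0 or just below it) in every library of control, MYO5B-knockout (KO) and LPA-treated knockout (KO + LPA) mice. Points are mice, open points are control mouse 2 and knockout mouse 3, horizontal lines are means and vertical lines span 1 SD; knockout points of Mboat1, Mboat2 and Lpcat4 all lie above control points, and those of Agpat3 all lie below.

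The 2 MBOAT members were low in control mice and were higher in every knockout library. MBOAT1 acylates mainly lysophosphatidylethanolamine and lysophosphatidylserine. Mboat1 (ENSMUSG00000038732, chromosome 13 from 30136498 to 30246717) was measured in control mice 2, 4 and 5 at 0.344, 0.875 and 0.710 FPKM, or 11, 39 and 36 reads. Vehicle-treated knockout mice 3, 5, 6 and 7 had 12.4, 51.0, 40.6 and 33.2 FPKM of Mboat1. LPA-treated mice 1, 4 and 5 had 43.5, 35.0 and 16.5 FPKM. The lowest knockout library was that of mouse 3, and it still lay far above the highest control library. On the log2 scale Mboat1 was 5.43 higher in knockout than in control mice (SE 0.54), and 5.53 higher without the 2 libraries that stood apart. The mean FPKM was 53.3 times that of control mice.

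MBOAT2 acylates lysophosphatidylcholine and lysophosphatidylethanolamine. Mboat2 (ENSMUSG00000020646, chromosome 12 from 24831599 to 24960301) gave 0, 3 and 4 reads in the control libraries 2, 4 and 5, which equal 0, 0.0695 and 0.0815 FPKM. Vehicle-treated knockout mice 3, 5, 6 and 7 showed 1.01, 1.08, 0.332 and 0.364 FPKM of Mboat2, while LPA-treated mice 1, 4 and 5 showed 1.79, 10.8 and 2.36 FPKM. The 3 groups did not overlap, and LPA-treated mouse 4 was far above the rest. The knockout libraries held 125 reads of Mboat2 and the control libraries 7, a ratio per read on genes of 11.0 with reads pooled over the mice of a group. On the log2 scale the difference was 2.30 (SE 0.70) with the pseudocount of 0.1 FPKM, and ran from 0.66 with a pseudocount of 1 to 3.88 with 0.01, since the control level lies near the floor of 3 reads.

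Of the 4 LPCAT members, Lpcat4 was higher in every knockout library, and the other 3 overlapped between knockout and control mice. LPCAT4 acylates several kinds of lysophospholipid. Lpcat4 (ENSMUSG00000027134, chromosome 2 from 112239468 to 112247111) had levels of 4.38, 1.80 and 2.74 FPKM in the control libraries 2, 4 and 5. Knockout mice 3, 5, 6 and 7 had 15.5, 19.2, 16.5 and 25.1 FPKM of it, and LPA-treated mice 1, 4 and 5 had 21.1, 29.3 and 24.1 FPKM. The highest control library was that of mouse 2 and the lowest knockout library that of mouse 3. Its mean FPKM in knockout mice was 6.43 times that of control mice. The log2 difference was 2.71 (SE 0.34), and 3.11 without the 2 libraries that stood apart.

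LPCAT3 puts polyunsaturated chains into phosphatidylcholine and is the best known member in the enterocyte, where it serves lipid absorption. Lpcat3 (ENSMUSG00000004270, chromosome 6 from 124663027 to 124704418) reached 38.6, 108 and 108 FPKM in the control libraries 2, 4 and 5 and 25.3, 123.5, 123.3 and 109 FPKM in the knockout libraries 3, 5, 6 and 7. The LPA-treated libraries 1, 4 and 5 held 143, 129 and 70.6 FPKM of Lpcat3. The groups overlapped throughout, and the low values belonged to the 2 libraries that stood apart and to LPA-treated mouse 5. The log2 difference between knockout and control mice was 0.07 (SE 0.60), and its sign turned with the scaling (-0.22 after scaling by the median of ratios). Lpcat3 overlaps Emg1 on the other strand, a gene with 32.1% of its number of reads, and whether reads were assigned by strand is not given in the sources used here.

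LPCAT1, known from lung surfactant, makes saturated phosphatidylcholine, and LPCAT2, known from inflammatory cells, also makes platelet-activating factor. Both genes were low in every library. Lpcat1 (ENSMUSG00000021608, chromosome 13 from 73467197 to 73516422) ran from 0.247 to 1.36 FPKM in control mice, from 0.732 to 1.12 FPKM in knockout mice and from 0.945 to 1.31 FPKM in LPA-treated mice. The high control value was that of mouse 2. Lpcat1 differed by 0.68 on the log2 scale between knockout and control mice (SE 0.56), by 1.21 without the 2 libraries that stood apart, and by -0.03 in DESeq2 on recovered reads. Lpcat2 (ENSMUSG00000033192, chromosome 8 from 92855350 to 92919279) lay at 0.323, 0.209 and 0.265 FPKM in the control libraries, while knockout mice 3, 5, 6 and 7 had 0, 0.104, 0.0874 and 0.253 FPKM. It rested on 32 reads over the control libraries and 26 over the knockout libraries, a log2 difference of -0.92 (SE 0.51) with overlapping groups.

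Among the AGPAT members, which turn LPA into phosphatidic acid, Agpat3 was lower in every knockout library and Agpat1 and Agpat2 overlapped between the groups. AGPAT3 is the member with a preference for polyunsaturated chains. Agpat3 (ENSMUSG00000001211, chromosome 10 from 78269178 to 78352489) had 23.7, 27.9 and 29.8 FPKM in the control libraries 2, 4 and 5. The knockout libraries 3, 5, 6 and 7 had 11.7, 10.7, 10.1 and 9.54 FPKM of it, and the LPA-treated libraries 1, 4 and 5 had 13.7, 8.17 and 9.44 FPKM. Its mean was 27.1 ± 3.15 FPKM in control mice (SD, n = 3) and 10.5 ± 0.926 FPKM in knockout mice (SD, n = 4), and each of the 2 libraries that stood apart lay on the side of its group nearer to the other group. The log2 difference between knockout and control mice was -1.35 (SE 0.27), and -1.50 without those 2 libraries.

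AGPAT1 is the widely expressed member. Agpat1 (ENSMUSG00000034254, chromosome 17 from 34604262 to 34613449) measured 40.2, 95.8 and 105 FPKM in the control libraries 2, 4 and 5 and 14.1, 52.6, 60.7 and 69.1 FPKM in the knockout libraries 3, 5, 6 and 7. In the LPA-treated libraries 1, 4 and 5 it measured 62.9, 60.3 and 38.1 FPKM. Its groups overlapped only through control mouse 2, and the log2 difference between knockout and control mice was -0.81 (SE 0.56) with that library and its knockout counterpart and -0.73 without them. AGPAT2 is needed for fat storage in adipose tissue. Agpat2 (ENSMUSG00000026922, chromosome 2 from 26593057 to 26604417) spanned 28.0 to 154 FPKM in control, 25.9 to 218 FPKM in knockout and 65.4 to 188 FPKM in LPA-treated mice. The difference of Agpat2 between knockout and control mice was 0.21 on the log2 scale (SE 0.80), with a sign that turned in DESeq2 (-0.03). LCLAT1 acylates lysocardiolipin and lysophosphatidylinositol. Lclat1 (ENSMUSG00000054469, chromosome 17 from 73107985 to 73243368) spanned 4.44 to 11.4 FPKM in control, 2.96 to 11.9 FPKM in knockout and 4.65 to 11.4 FPKM in LPA-treated mice, a log2 difference of -0.18 (SE 0.55) between knockout and control mice.

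As the family was picked on this contrast, the counts that follow describe it and nothing is read from them. Of the 10 members, 3 passed limma's adjusted p of 0.05 between knockout and control mice, where 2.01% of all 15729 genes tested did. Mboat1 and Lpcat4 were higher, as 1.13% of genes were, and Agpat3 was lower, as 0.884% were. On recovered reads, edgeR called 2 members higher and 1 lower, with 2.82% of genes called, and DESeq2 called 3 higher and 1 lower, with 12.5% of genes called. The libraries did not overlap for 3 members that were higher and 1 that was lower, against 11% and 6.2% of all genes. The median log2 difference was 0.14 over the members and 0.29 over all genes tested. Leaving out control mouse 4 or 5, knockout mouse 5, 6 or 7, or LPA-treated mouse 4 or 5 removed Agpat3 from the count of lower members, with a log2 difference between -1.45 and -1.28 over the 10 fits that each leave out a mouse.

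**Figure D2:**
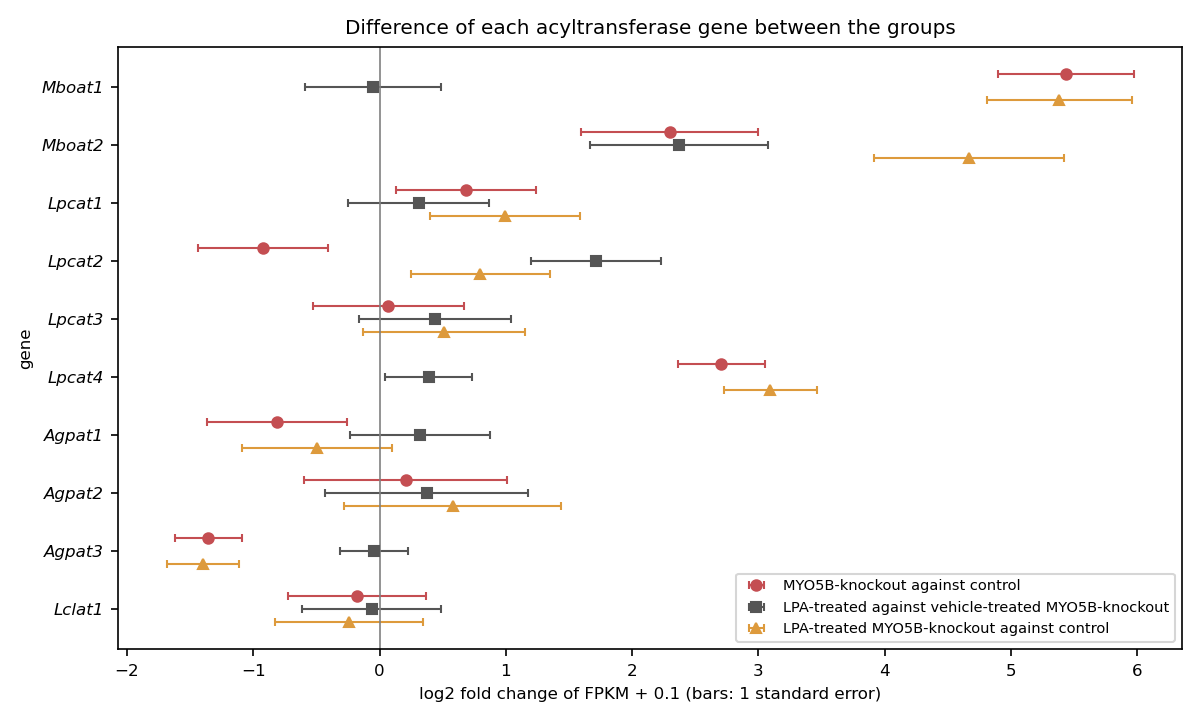
Log2 fold change of FPKM + 0.1 (horizontal axis) of each gene (vertical axis) between MYO5B-knockout and control mice (circles), LPA-treated and vehicle-treated knockout mice (squares) and LPA-treated knockout and control mice (triangles), with bars of 1 standard error. Circle and triangle of Mboat1 lie at 5.43 and 5.38 and its square at -0.05, whereas the squares of Mboat2 and Lpcat2 lie at 2.37 and 1.72.

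Within knockout mice, LPA was set against vehicle, LPA being the substrate of the AGPAT members and a relative of the substrates of the others. None of the 10 members passed, with limma's adjusted p = 1 for each, and 0% of all genes tested passed. At an unadjusted p under 0.05, 2 members (Mboat2 and Lpcat2) and 2.92% of all genes tested passed. With edgeR again 0 members and 0% of genes passed, and with DESeq2, which gave Lpcat2 no adjusted p, 0 members and 0.0589% of genes. The median log2 difference was 0.35 over the members and 0.11 over all genes.

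Mboat2 and Lpcat2 were the members whose LPA-treated libraries all lay above the vehicle-treated ones, as did those of 3.56% of all genes tested, while the groups did not overlap in either direction for 4.16%. For Mboat2 the LPA-treated libraries held 1.79 to 10.8 FPKM and the vehicle-treated ones 0.332 to 1.08 FPKM, a log2 difference of 2.37 (SE 0.70, 95% interval 0.82 to 3.92, limma's unadjusted p = 0.0066 and adjusted p = 1). Without LPA-treated mouse 4, which held 523 of the 734 reads, the difference was 1.59. Lpcat2 had 0.496, 0.619 and 0.482 FPKM under LPA (mice 1, 4 and 5), from 34, 30 and 18 reads, and 0 to 0.253 FPKM under vehicle. The log2 difference of Lpcat2 was 1.72 (SE 0.51, 95% interval 0.58 to 2.86, limma's unadjusted p = 0.0070 and adjusted p = 1), and ran from 0.47 with a pseudocount of 1 to 2.88 with 0.01.

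Markers of other cell types are given beside Lpcat2, and 0 of them passed between LPA and vehicle (limma's adjusted p = 1 for each marker list's smallest). Of the 12 leukocyte markers tested out of 13, 7 had positive and 5 negative log2 differences, with a median of 0.31, and 4 were higher in every LPA-treated than in every vehicle-treated library. Of all 15729 genes tested 9547 had positive differences, with a median of 0.11. As many as 3.56% of all genes were higher in every LPA-treated than in every vehicle-treated library. The summed FPKM of the 13 overlapped (25.6 to 43.9 and 13.1 to 125), and none was at 0 in every library. Of the macrophage markers, Cd68 was at 1.59 to 2.63 FPKM in LPA-treated and 0 to 1.08 FPKM in vehicle-treated knockout mice, and Adgre1 at 0.101 to 0.301 and 0 to 0.0410 FPKM, whereas Csf1r overlapped (0.869 to 1.72 and 0.552 to 0.952 FPKM). Cd79a (0.876 to 1.51 and 0.0304 to 0.168 FPKM) and Itgax (0.408 to 0.818 and 0 to 0.395 FPKM) were the rest of the 4. Cd3e, Cd3g and Cd8a overlapped, with means of 0.794, 1.86 and 1.08 FPKM under LPA and 2.05, 3.07 and 1.97 FPKM under vehicle. All 8 stromal and endothelial markers tested had positive differences, with a median of 1.33, and the summed FPKM of that list overlapped (1.81 to 10.4 and 0.472 to 4.51). Goblet and enteroendocrine markers each had 5 positive and 0 negative differences, and Paneth cell markers 0 and 5. For tuft, epithelial, enterocyte and proliferation markers the counts were 4 and 1, 6 and 1, 7 and 3, and 0 and 10. Markers higher in every LPA-treated library numbered 2 for goblet and 1 each for stromal, epithelial and enterocyte lists. The part of these cells in the values of Lpcat2 was not tested.

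The other 8 members overlapped between LPA and vehicle. Mboat1 differed by -0.05 on the log2 scale (SE 0.54, 95% interval -1.24 to 1.14), an interval that leaves room for a difference of over 1 either way. Agpat3 had the narrowest interval, a difference of -0.04 (SE 0.27, 95% interval -0.64 to 0.55), followed by Lpcat4 with 0.39 (SE 0.34, 95% interval -0.37 to 1.15). The other 5 had differences from -0.06 for Lclat1 to 0.44 for Lpcat3, with standard errors of 0.55 to 0.80. Without knockout mouse 3, the differences of Lpcat3, Agpat1 and Agpat2 turned to -0.11, -0.20 and -0.28.

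LPA-treated knockout mice were also set against the same 3 control mice, so this comparison is not independent of that between vehicle-treated knockout and control mice. The log2 differences were 5.38 for Mboat1 (SE 0.57), 4.67 for Mboat2 (SE 0.75), 3.09 for Lpcat4 (SE 0.37) and -1.40 for Agpat3 (SE 0.29), beside 5.43, 2.30, 2.71 and -1.35 under vehicle. Lpcat2 differed by 0.80 (SE 0.55), with every LPA-treated library above every control library, beside -0.92 under vehicle. The other 5 members overlapped with the control mice, at differences from -0.49 for Agpat1 to 0.99 for Lpcat1. This contrast is also no test of the family, since it holds the control mice of the choice and a further set of knockout mice with high Mboat1, and nothing is read from its counts. By limma's adjusted p, 4 of 10 members passed, where 2.32% of all genes did, namely 3 that were higher (Mboat1, Mboat2 and Lpcat4), as 1.54% of genes were, and Agpat3, which was lower, as 0.776% were. The libraries did not overlap for 4 higher members and 1 lower member, against 20.5% and 6.38% of all genes. Mboat2 left the count without control mouse 5 or LPA-treated mouse 5. The count of lower members fell to 0 without control mouse 4 or 5, vehicle-treated knockout mouse 5, 6 or 7, or LPA-treated mouse 4 or 5.

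**Figure D3:**
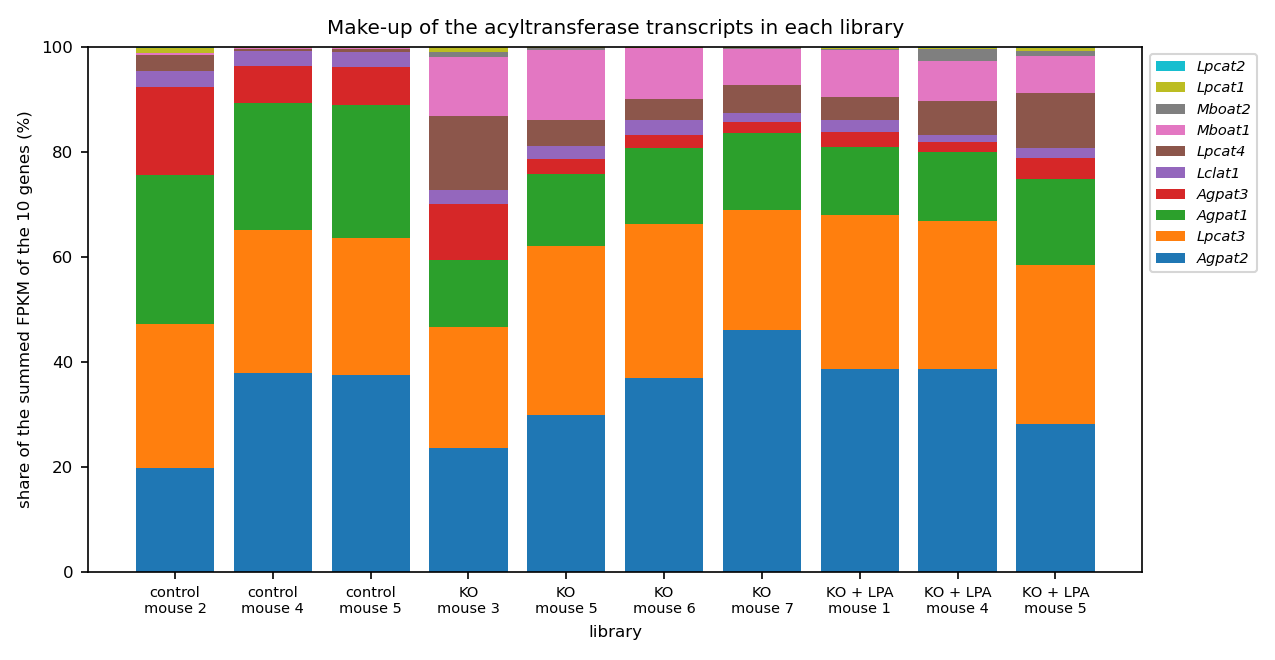
Share of each gene in the summed FPKM of the 10 genes (vertical axis, %) in each library (horizontal axis). Mboat1 takes 0.172% to 0.243% in control libraries and 7.01% to 13.3% in vehicle-treated knockout libraries, while Agpat1 takes 24.1% to 28.4% and 12.8% to 14.6%.

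The make-up of the family's RNA differed between control and knockout libraries, while its sum overlapped. The summed FPKM of the 10 members was 141 to 412 in control, 110 to 473 in vehicle-treated knockout and 233 to 486 in LPA-treated mice, with the lowest sum of each of the first 2 groups in the libraries that stood apart. Mboat1 made up 0.212% ± 0.0363 of that sum in control mice (SD, n = 3), 10.3% ± 2.65 in knockout mice (SD, n = 4) and 7.89% ± 0.954 in LPA-treated mice (SD, n = 3). Lpcat4 made up 1.41% ± 1.47, 7.08% ± 4.69 and 7.02% ± 3.05 in the same order. The share of Agpat1 was 26.0% ± 2.21 in control mice, and 13.9% ± 0.826 and 14.2% ± 1.91 in the knockout groups. The share of Lpcat3 was 26.9% ± 0.626, 26.9% ± 4.65 and 29.3% ± 1.02, and the range in knockout mice (23.0% to 32.2%) spanned those of control (26.2% to 27.3%) and LPA-treated mice (28.3% to 30.3%). These shares rest on the same contrast as the choice of the family and on a common sum, so that a larger share of 1 member lowers the others.

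The pattern of Mboat1 over the 10 libraries was compared with that of 10567 genes that averaged 1 FPKM or more, by Pearson's r on log2(FPKM + 0.1) and as a description, since the libraries of a group share their condition. The highest r was that of Ddah1 (0.989), an enzyme that breaks down methylated arginine, followed by the potassium channel gene Kcnk6 (0.987), Cldn2 (0.986), which encodes a pore-forming claudin, the splicing helicase gene Dhx38 (0.979) and 4930461G14Rik (0.977). Cldn2 had means of 9.84, 85.9 and 102 FPKM in control, knockout and LPA-treated mice, and Ddah1 means of 0.225, 13.0 and 12.7 FPKM. The lowest r was that of Selenbp1 (-0.981), followed by Aamdc (-0.979), Khk (-0.974), which encodes ketohexokinase of fructose metabolism, Hnf4aos (-0.972) and Tmem19 (-0.966). Khk had means of 599, 99.9 and 131 FPKM. Within the family, r with Mboat1 was 0.918 for Lpcat4, 0.747 for Mboat2 and -0.910 for Agpat3, and between -0.19 and 0.42 for the other 6 members.

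Genes of the neighbouring steps were taken from 6 lists and tested between knockout and control mice. The lists were chosen with earlier results of these data known. Their counts and adjusted p, here and below, are therefore a description and no independent support. Of 69 genes tested 3 passed as higher and 0 as lower, against 1.13% and 0.884% of all genes, and the 3 were Pla2g2e, Acsl3 and Scd2. Pla2g2e, which encodes a secreted phospholipase A2 and so belongs to the enzymes that make lysophospholipids, was 1 of 16 phospholipase A2 genes tested. From 0, 0.532 and 0.134 FPKM in the control libraries it rose to 3.64, 4.75, 2.41 and 1.66 FPKM in knockout mice 3, 5, 6 and 7 (log2 fold change 3.61, SE 0.64, limma's adjusted p = 0.0238). The rise was seen in 4 of 4 knockout mice, and its adjusted p was above 0.05 without control mouse 5 (0.107), knockout mouse 5 (0.0838) or knockout mouse 6 (0.0624).

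Acsl3 and Scd2 belong to the supply of acyl-CoA, where 2 of 14 genes passed as higher and 0 as lower, against 1.13% and 0.884% of all genes. Of these 14 genes, 9 had positive and 5 negative log2 differences. ACSL3 activates fatty acids at the endoplasmic reticulum and lipid droplets. Acsl3 had 0.802, 4.64 and 4.74 FPKM in the control libraries and 16.8, 32.7, 17.4 and 12.8 FPKM in the knockout libraries 3, 5, 6 and 7, a log2 fold change of 2.77 (SE 0.60, limma's adjusted p = 0.0456). SCD2 desaturates stearoyl-CoA to oleoyl-CoA. Scd2 had 3.54, 4.07 and 2.52 FPKM in the control libraries and 9.40, 45.3, 14.7 and 15.4 FPKM in the knockout libraries, a log2 fold change of 2.38 (SE 0.51, limma's adjusted p = 0.0448). The libraries of both genes did not overlap between the groups. Leaving out any single mouse took the adjusted p of Acsl3 over 0.05 (0.0621 to 0.147), and so did leaving out any mouse but knockout mouse 3 for Scd2 (0.0622 to 0.17).

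In the other 4 lists 0 genes passed in limma for knockout against control, and the gene with the smallest p of each is given as values. Agpat4, 1 of 4 other lysophospholipid acyltransferases and a further LPA acylating enzyme, had 3.92, 2.07 and 2.15 FPKM in the control libraries and 26.9, 8.54, 5.24 and 9.84 FPKM in the knockout libraries (log2 fold change 1.97, SE 0.52, limma's adjusted p = 0.081). Without the 2 libraries that stood apart its log2 fold change was 1.80 with limma's adjusted p of 0.0354. That setting was the only 1 of 20 alternatives under 0.05, and 0 of the 10 fits that each leave out a mouse passed. Gpam, 1 of 3 glycerol-3-phosphate acyltransferases tested and the mitochondrial enzyme that makes LPA, had a log2 fold change of 2.19 (SE 0.85, limma's adjusted p = 0.215). Its groups overlapped, at 0 to 0.322 FPKM in control and 0.167 to 1.83 FPKM in knockout mice. The log2 fold change of Gpam ran from 0.78 with a pseudocount of 1 to 3.50 with 0.01. Gdpd3, 1 of 10 lysophospholipases and LPA phosphatases, had a log2 fold change of 2.04 (SE 0.93, limma's adjusted p = 0.29), and of 0.85 without control mouse 2. It was at 0 to 1.13 FPKM in control and 1.16 to 4.52 FPKM in knockout mice. Dgat1, 1 of 22 genes from phosphatidic acid to triglyceride and phospholipid and the enzyme of the last step of triglyceride synthesis, was at 571 to 692 FPKM in control and 260 to 382 FPKM in knockout mice (log2 fold change -1.01, SE 0.26, limma's adjusted p = 0.0714). The medians of the 6 lists ran from -0.08 to 0.64, beside 0.29 over all genes.

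**Figure D4:**
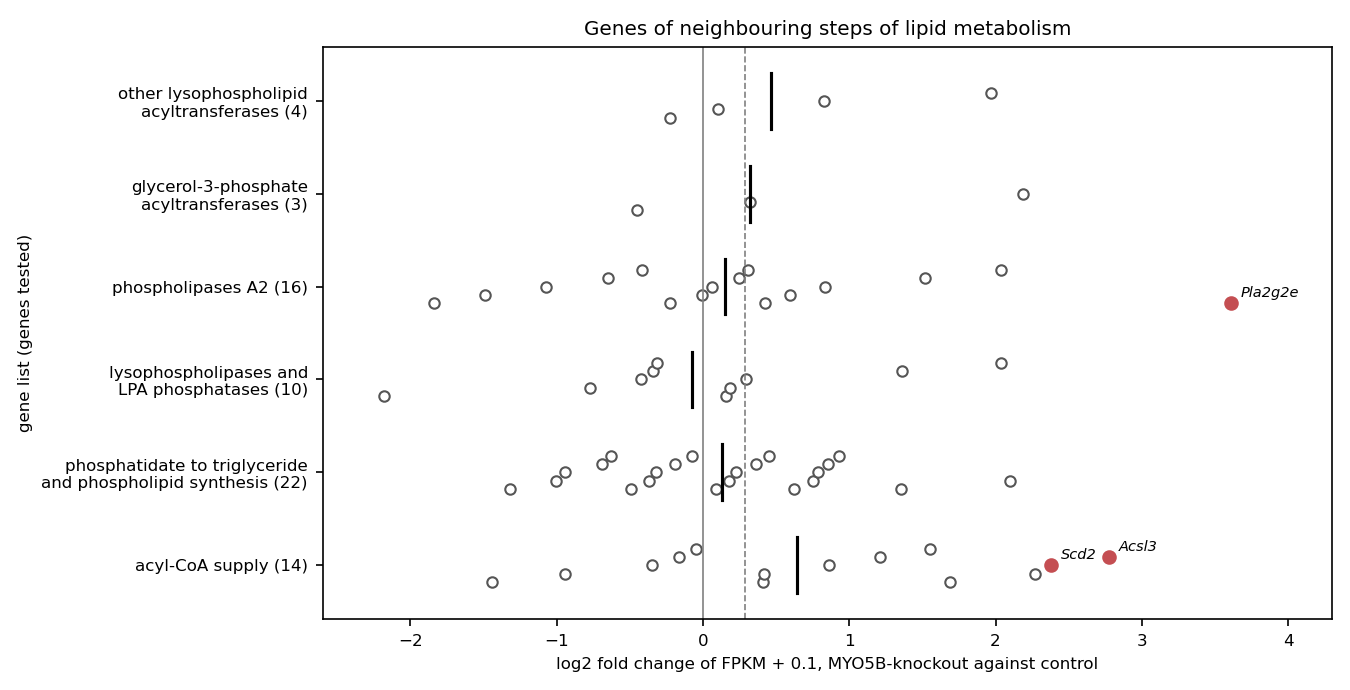
Log2 fold change of FPKM + 0.1 between MYO5B-knockout and control mice (horizontal axis) of the tested genes of 6 lists of neighbouring steps (vertical axis, number of genes tested in brackets). Filled, named points passed limma's adjusted p of 0.05, black bars are list medians and the dashed line is the median of all genes tested, 0.29; the 3 named genes all lie to the right of it.

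Between LPA and vehicle 0 of these genes passed. Between LPA-treated knockout and control mice 3 passed as higher, which were Pla2g2e (log2 fold change 4.71, SE 0.68, limma's adjusted p = 0.00809), Acsl3 (3.26, SE 0.64, limma's adjusted p = 0.0315) and Etnk2, an ethanolamine kinase gene named after its value was seen (3.73, SE 0.65, limma's adjusted p = 0.0183). Scd2 was 1.84 higher in this comparison (SE 0.54, limma's adjusted p = 0.12).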

How the data were processed

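RNA from 10 mice was measured by poly-A RNA sequencing. The authors deposited FPKM per gene, made with tools that the submitters' processing notes list as STAR 2.5, TopHat, HTSeq 0.6.1 and DESeq2 without roles, on GRCm38 (mm10), with no scaling between libraries stated. Deposited raw read counts of 9 genes were used only as a check: FPKM times gene length over a library's step gave whole reads for 100% of values under 1000 reads (tolerance 0.05 reads), and 63 of 63 deposited counts equalled them. The authors' own fold changes, p-values and pathway enrichments were not used.

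Log2(FPKM + 0.1) was fitted with limma 3.58.1 (R 4.3.3) and its variance trend, all 3 groups together, for the 15729 genes that averaged 0.1 FPKM or more, two-sided, with Benjamini-Hochberg adjustment over all genes and a threshold of 0.05. Intervals are 95% and cover the spread between mice. The count ratio of Mboat2 pools the reads of a group's mice and has no interval. Fold changes on this scale understate the change of low genes. The fit was also run on simulated reads with known changes, planted only in genes with many reads and with the same spread for all genes. That run had no library like control mouse 2 or knockout mouse 3 and says nothing of genes with few reads. Alternatives were pseudocounts, filters, scalings, a fit of 2 groups, edgeR 4.0.16, DESeq2 1.42.0 and each mouse left out. Of the 35275 genes, 34490 have an identifier in GENCODE M21. Listed symbols were matched by identifier (7 genes under older symbols).

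The members and lists were chosen with earlier results of these data known. Named were all members, of each list up to 4 genes with the largest change among those that passed, or else the gene with the smallest p, and the 5 genes with the highest and the 5 with the lowest r with Mboat1. Promoter windows come from RefSeq. Marker lists are described by their sums and by the signs of their genes' differences.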

Additional observations from a re-analysis of the deposited data

Results flagged for a closer look

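Among the 10 members and 7 named genes of the lists, the values of the 4 vehicle-treated knockout mice were examined for a library far from the others, by Dixon's test, which flags about 1 in 20 groups by chance. It marked 2 of 17 genes. Lpcat3 was at 25.3 FPKM in knockout mouse 3 and at 109 to 124 FPKM in the other 3 mice, and that library is 1 of the 2 with few detected genes. Scd2 was at 45.3 FPKM in knockout mouse 5 and at 9.40 to 15.4 FPKM in the others.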

How the results depend on the processing

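The log2 differences of Mboat1 and Lpcat4 between knockout and control mice ran from 4.28 to 5.86 and from 2.26 to 3.11 over 20 alternatives, which is no support, as the family was picked on this contrast. Between LPA and vehicle no member passed in any alternative that gave it a value (20 each, but 19 for Lpcat1 and 18 for Lpcat2). The median difference of all genes between knockout and control mice, 0.29, was 0.04 after scaling by the median of ratios and 0.07 after quantile normalization, so that small differences are relative to it. Settings that changed a result are as follows, and the cause was not tested.

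Between knockout and control mice, the fit of only 2 groups, which has fewer libraries, gave 0 lower members (1 with all) and 0 higher list genes (3 with all). Of all 15729 genes that fit called 28 higher and 22 lower, beside 177 and 139 in the main fit. Higher list genes were 1 with a pseudocount of 0.01, 1 with no filter, 6 without the 2 libraries with few genes and 8 in DESeq2. Of all genes, 162 of 15729, 105 of 22484, 403 of 15729 and 804 of 14616 were called higher in those settings. Lower list genes (0 with all libraries) were 1 with a minimum mean of 1 FPKM, 3 without the 2 libraries and 7 in DESeq2. Genes called lower in all there were 179 of 10575, 375 of 15729 and 1026 of 14616. Signs turned for Lpcat3 (-0.22 after median-ratio scaling, -0.11 in edgeR, -0.15 in DESeq2), Agpat2 (-0.086 after median-ratio scaling, -0.028 in DESeq2) and Lpcat1 (-0.031 in DESeq2). Without the 2 libraries with few genes, LPA against vehicle turned for Lpcat3 (-0.11), Agpat1 (-0.20), Agpat2 (-0.28) and Agpat3 (0.0082), and LPA-treated knockout against control for Agpat2 (-0.23).

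With each mouse left out in turn, knockout against control gave 0 to 1 lower members, 0 to 2 higher and 0 to 1 lower list genes, and ranges of -0.42 to 0.62 for Lpcat3, -0.61 to 0.85 for Agpat2 and -0.62 to 0.25 for Lclat1. Of all 15729 genes those fits called 30 to 250 higher and 14 to 153 lower. LPA against vehicle gave -0.11 to 0.76 for Lpcat3, -0.20 to 0.56 for Agpat1, -0.28 to 0.86 for Agpat2, -0.26 to 0.11 for Agpat3, -0.48 to 0.36 for Mboat1 and -0.49 to 0.23 for Lclat1. LPA-treated knockout against control gave 0 to 1 lower members, with 15 to 249 of all genes called lower, -0.23 to 1.07 for Agpat2 and -0.69 to 0.050 for Lclat1.

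Control and LPA-treated mice share the numbers 4 and 5. The deviations of same-numbered mice correlated at 0.104 and -0.355, and those of differently numbered mice at 0.162 and -0.409. So few pairs cannot show whether mice of the same number share anything more. With the replicate block 0 members were higher and 0 lower (3 and 1 without it), Mboat1 was 4.76 higher, and Lpcat3 and Agpat2 turned to -0.18 and -0.50. With that block 0 of all 15729 genes passed. A mouse whose number occurs only once drops out of that fit, so it compares only the control and LPA-treated mice numbered 4 and 5. Knockout mouse 5 has the same number as well, but does not enter this difference. So few mice leave almost no spread to test against, and nothing is read from the counts with the block. The fit of 2 groups gave 0 lower members here too, with 75 of all 15729 genes called lower. The other comparisons share 1 number, which allows no block. Near the floor of 3 reads, where depth limits the fold, lie Mboat2 in control mice and Lpcat2 in most vehicle-treated knockout mice. Mboat2 had 0, 3 and 4 reads in control mice 2, 4 and 5. Lpcat2 had 0, 5, 5 and 16 reads in vehicle-treated knockout mice 3, 5, 6 and 7.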
